A study of Mus musculus with 20 samples.

Results

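The transcripts of 10 carbonic anhydrase genes, Car1, Car2, Car3, Car4, Car5a, Car8, Car9, Car12, Car13 and Car14, were followed in mouse liver tumors and in liver. They are 10 of the 50559 genes in the count tables. They were taken by symbol and were chosen by their measured levels, with the differences between these 4 groups already known, so their values below are a description and carry no test. Of the 10 genes, 8 reached a CPM (reads scaled to library size, TMM-adjusted) of 1 in at least 5 libraries, the filter for fitting, while Car4 and Car9 did not.

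The data are mRNA sequencing counts from 20 libraries, 5 in each of 4 groups, each from a different mouse. All animals were female C57BL/6J mice, and the methods of the study describe young adults at injection. Livers were harvested at different times after it, and the methods give no time for each library. The tumor genes reached the liver by hydrodynamic gene transfer, a rapid injection of plasmid solution into the tail vein that mainly transfects hepatocytes. The Sleeping Beauty transposase SB100X was given with them. Aldafermin+MYC tumors arose after transfer of MYC with Aldafermin (NGM282), an analog of the human hormone FGF19 that differs from it in the N-terminal part, and FGF19+MYC tumors after transfer of MYC with FGF19. The sgTrp53+MYC tumors arose after transfer of MYC with a CRISPR guide against Trp53, and liver served as the control, labelled healthy and non treated, while the methods of the study give an RFP plasmid for the controls. MYC was expressed from a transposon with an EF1a promoter, so all tumors share MYC and the transposase, and tumors held transfected hepatocytes beside whatever host cells they contained.

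Carbonic anhydrases are zinc enzymes that interconvert carbon dioxide and bicarbonate, releasing or taking up a proton. Car1, Car2, Car3 and Car13 are cytosolic, Car5a is mitochondrial, Car4 is anchored to the outer membrane surface, Car9, Car12 and Car14 are transmembrane enzymes with an extracellular catalytic domain, and Car8 is a related protein without catalytic activity. In liver, Car3 is an abundant protein of hepatocytes around the central vein, and mitochondrial Car5a supplies bicarbonate to carbamoyl phosphate synthetase and pyruvate carboxylase, the entry points of the urea cycle and of gluconeogenesis. Car9 and Car12 are known as tumor-associated surface enzymes, and Car9 is a classical target of hypoxia-inducible factors.

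Positions are given in GRCm39 with the GENCODE M39 annotation. Car13 (chr3:14706783-14728077, plus strand), Car1 (chr3:14831269-14873459, minus), Car3 (chr3:14928489-14937595, plus) and Car2 (chr3:14951317-14967568, plus) are neighbours, with 103191, 55029 and 13721 bases between them and 0 protein-coding genes in the gaps. Car14 (chr3:95805079-95812646, minus) overlaps Aph1a on the opposite strand and Car12 (chr9:66615426-66674186, plus) overlaps Aph1b in the same way, and whether strand was used in counting is not given in the sources used here. Aph1b had 657 reads over the 5 livers, where Car12 had 4, and Aph1a had 10091 reads in the same livers. Car5a is at chr8:122642141-122671647 (minus), Car8 at chr4:8141533-8239088 (minus), Car9 at chr4:43506966-43513729 (plus) and Car4 at chr11:84848020-84856879 (plus).

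The 3 transmembrane enzymes had 3 different patterns. Car12 was near 0 in liver and high in every tumor, Car14 was present throughout, and Car9 was near 0 nearly everywhere. Their 250 bases upstream of the annotated start are shown for that reason (RefSeq, GRCm38.p6, 5′ to 3′ on the strand of the gene), with capitals marking matches to ACGTG on either strand, the core of the hypoxia response element and part of the E-box CACGTG. They span chr9:66713436-66713685 (plus) for Car12, chr3:95904686-95904935 (minus) for Car14 and chr4:43506776-43507025 (plus) for Car9.
Car12: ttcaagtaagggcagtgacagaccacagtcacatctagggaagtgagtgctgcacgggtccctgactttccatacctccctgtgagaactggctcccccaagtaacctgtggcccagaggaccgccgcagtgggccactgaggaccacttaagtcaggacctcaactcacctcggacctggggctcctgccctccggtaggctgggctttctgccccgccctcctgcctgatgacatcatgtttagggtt
Car14: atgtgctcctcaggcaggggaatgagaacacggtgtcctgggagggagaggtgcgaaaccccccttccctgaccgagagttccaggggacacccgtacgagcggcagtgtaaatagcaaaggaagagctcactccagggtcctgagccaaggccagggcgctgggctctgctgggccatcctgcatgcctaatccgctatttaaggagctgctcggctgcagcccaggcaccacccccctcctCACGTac
Car9: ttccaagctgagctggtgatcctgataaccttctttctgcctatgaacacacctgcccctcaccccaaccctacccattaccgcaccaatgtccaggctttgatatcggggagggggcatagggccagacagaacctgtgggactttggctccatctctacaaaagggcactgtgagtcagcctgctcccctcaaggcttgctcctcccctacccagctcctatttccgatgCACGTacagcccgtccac
The windows of Car9 and Car14 each held 1 match to ACGTG, 18 and 7 bases before the start, and the window of Car12 held 0. Windows were at hand for 5 members, and those of Car4 and Car5a held 0 as well. Across 32851 windows of this length, 16.6% held ACGTG and 6.02% held CACGTG, which was in 0 of the 5. A match is a description of letters and was not tested as a binding site.

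Gene counts summed to 18004977 to 66354724 per library, and the sgTrp53+MYC libraries were the deepest (54042455 to 66354724). These 5 libraries were in a table of their own, so table and group cannot be told apart for them. They also had fewer reads listed as not aligned, 5.34 to 6.82% against 15.3 to 34.0% in the other libraries, which goes with every difference of this group. Trp53 itself was at 18.7 to 79.8 CPM in sgTrp53+MYC tumors, below every Aldafermin+MYC (90.7 to 176 CPM) and FGF19+MYC tumor (109.5 to 155 CPM), and at 28.8 to 36.3 CPM in liver. The summed level of 6 hepatocyte markers (Alb, Apoa1, Ttr, Tat, Hnf4a and Serpina1a) was 167800 to 217600 CPM in liver, 8181 to 20740 in Aldafermin+MYC, 8493 to 26590 in FGF19+MYC and 2493 to 8903 in sgTrp53+MYC tumors. In such bulk samples, fewer cells of a type and less RNA per cell cannot be told apart.

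The plot of the members' levels by library shows these patterns side by side.

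**Figure D1:**
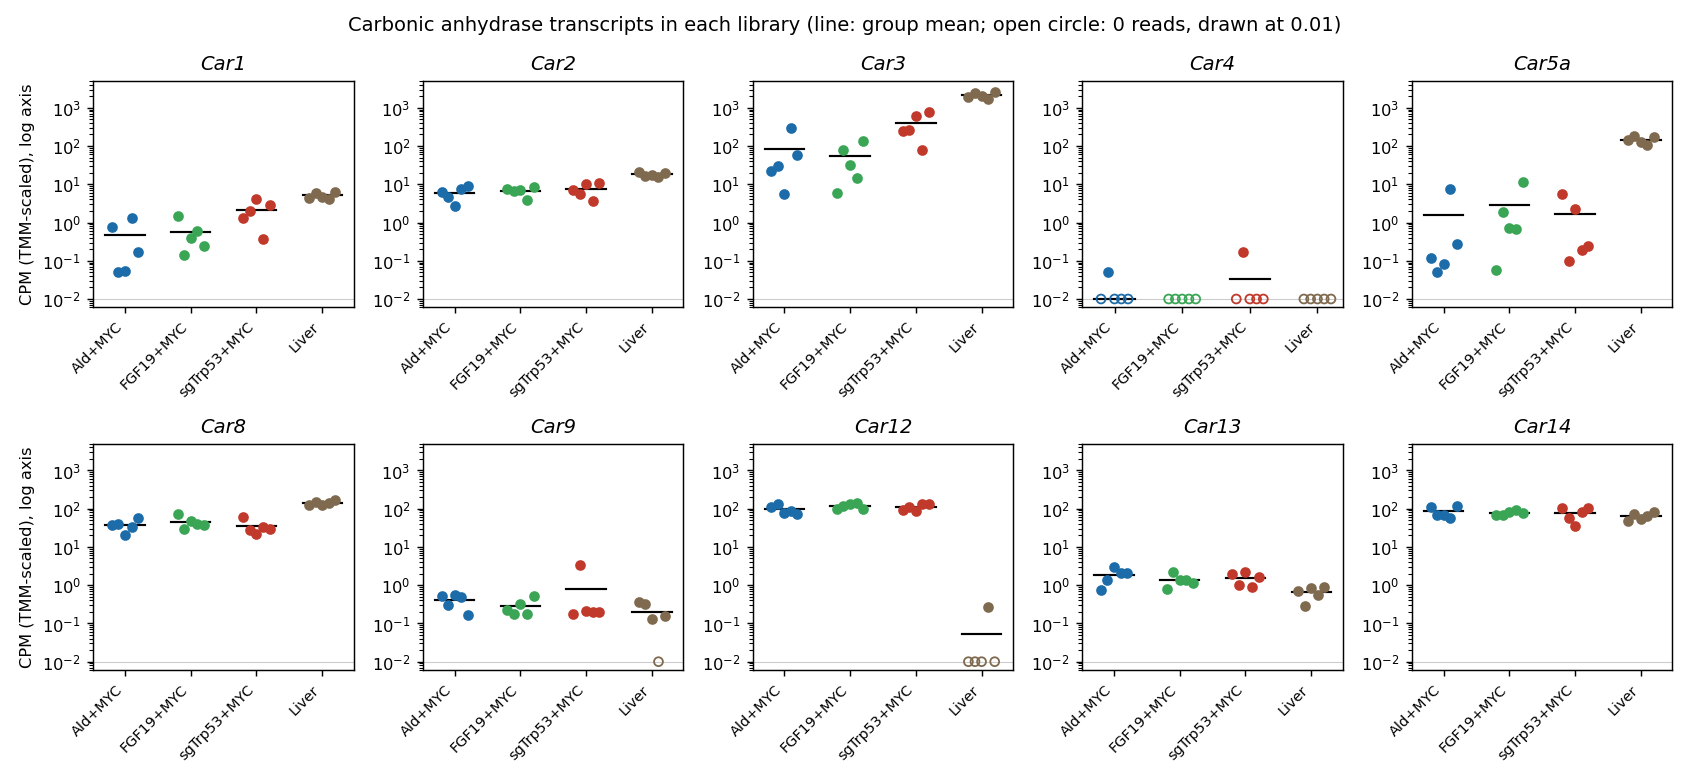
TMM-scaled CPM (log axis) of the 10 carbonic anhydrase genes, 1 panel per gene, 1 point per library in the 4 groups, with a line at the group mean and open circles for 0 reads. Car3, Car5a, Car8 and Car2 are highest in the 5 livers, Car12 is at 0 reads in 4 of 5 livers and at 74.1 to 145 CPM in all 15 tumors, and Car14 overlaps in all 4 groups.

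Car12, the transmembrane enzyme that acts at the cell surface, was the member with the sharpest contrast between liver and tumor. Its levels in Aldafermin+MYC tumors, replicates 1 to 5, were 112.5, 134, 75.7, 85.35 and 74.05 CPM. In FGF19+MYC tumors they were 96.9, 116, 129, 145 and 97.9 CPM. In sgTrp53+MYC tumors they were 93.05, 109.6, 88.9, 130.4 and 131 CPM. The 3 tumor groups overlapped throughout. In liver, 4 reads were counted over the 5 libraries, all in replicate 4 (0.273 CPM), and the other 4 livers had 0. The group means were 96.4 ± 26.2 CPM (SD, n = 5) in Aldafermin+MYC, 117 ± 20.5 in FGF19+MYC and 111 ± 19.9 in sgTrp53+MYC tumors, against a level of 0.0386 CPM (95% Poisson interval 0.0105 to 0.0987, counting error only) over the pooled livers. The ratio to liver was therefore about 2500 (977 to 9179) for Aldafermin+MYC, 3035 (1185 to 11140) for FGF19+MYC and 2868 (1120 to 10530) for sgTrp53+MYC tumors. Among tumors, the log2 difference was -0.28 (95% interval -0.88 to 0.32) between Aldafermin+MYC and FGF19+MYC and -0.06 ± 0.24 (SE) between the mean of both and sgTrp53+MYC.

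Car14, the other transmembrane enzyme with high levels and a known plasma membrane protein of hepatocytes, was similar in all 4 groups. Liver libraries held 49.1, 71.2, 53.7, 66.2 and 81.2 CPM. Aldafermin+MYC tumors held 113, 67.6, 66.5, 57.4 and 120.1 CPM and FGF19+MYC tumors 68.99, 69.8, 82.8, 92.85 and 75.3 CPM. In sgTrp53+MYC tumors the levels were 107, 56.4, 35.3, 80.7 and 102 CPM, the widest range of the 4 groups, and all 4 groups overlapped. The log2 difference from liver was 0.34 (95% interval -0.15 to 0.83) for the mean of Aldafermin+MYC and FGF19+MYC tumors and 0.24 (-0.31 to 0.80) for sgTrp53+MYC tumors. The summed hepatocyte markers did not overlap between tumors and liver, whereas Car14 did.

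Car9 and Car4 were scarcely detected. Car9 ran from 0.168 to 0.559 CPM in Aldafermin+MYC, from 0.176 to 0.526 in FGF19+MYC tumors and from 0 to 0.358 in liver. For sgTrp53+MYC tumors, replicates 1 to 5, it was at 0.181, 3.297, 0.207, 0.204 and 0.199 CPM, and replicate 2 alone held 236 of the 293 Car9 reads of this group. Car4 had 2 reads in Aldafermin+MYC replicate 2, 12 reads in sgTrp53+MYC replicate 2, and 0 reads in the other 18 libraries. The 12 reads correspond to 0.168 CPM, and the upper limit that 3 counts set was 0.11 to 0.215 CPM in single livers.

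The library sgTrp53+MYC replicate 2, which was highest for Car9 and Car4, also stood apart in markers of bile duct cells. The sum of 6 cholangiocyte markers (Krt19, Krt7, Sox9, Epcam, Spp1 and Cftr, all 6 detected in tumors) was 777.5 CPM there, 3.85 to 41.2 in the other sgTrp53+MYC tumors, 1.81 to 87.7 in Aldafermin+MYC and FGF19+MYC tumors and 44.3 to 124.5 in liver. Krt19 and Krt7, keratins of the bile duct epithelium, were at 191 and 80.8 CPM in it and at no more than 2.87 CPM in any other library. Cftr went the other way, at 0.0699 CPM in it and up to 0.408 CPM in the other sgTrp53+MYC tumors, and the remaining 5 were highest there of all tumors. Their part in the Car9 and Car4 values was not tested. Without this library, the mean of Car9 in sgTrp53+MYC tumors was 0.198 CPM in place of 0.818.

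Among the cytosolic enzymes, Car3 was the member with the highest level per kilobase in liver and was lower in every tumor. Liver libraries held 1867, 2376, 2040.0, 1729 and 2517 CPM, the highest 1.46 times the lowest. Levels in Aldafermin+MYC tumors were 22.4, 29.8, 5.73, 290.3 and 57.01 CPM. FGF19+MYC tumors held 5.74, 78.9, 31.1, 14.7 and 137 CPM. The sgTrp53+MYC tumors held 253.5, 256, 609, 78.1 and 773 CPM. All 15 tumors were below every liver, and 4 of the 5 sgTrp53+MYC tumors lay above every Aldafermin+MYC and FGF19+MYC tumor except Aldafermin+MYC replicate 4. Group means were 2106 ± 334 CPM in liver, 394 ± 287 in sgTrp53+MYC, 81.1 ± 118 in Aldafermin+MYC and 53.5 ± 54.7 in FGF19+MYC tumors (SD, n = 5). The log2 difference from liver was -5.00 ± 0.75 (SE) for the mean of Aldafermin+MYC and FGF19+MYC tumors and -2.42 ± 0.89 for sgTrp53+MYC tumors, and the former lay below the latter by -2.58 ± 0.70. These comparisons share libraries and are not independent of each other.

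The wide spread of Car3 in tumors ran beside hepatocyte markers only in part. Aldafermin+MYC replicate 4 and FGF19+MYC replicate 5 were the highest of their groups for Car3 and also had the highest Alb of all tumors (14250 and 17150 CPM) and the highest Tat, the tyrosine aminotransferase of mature hepatocytes (184 and 354 CPM). Not all 6 markers were highest in these libraries: in the former, Apoa1 and Hnf4a were exceeded within its group (4216 CPM against 5155 and 530.5 against 552), and in the latter Hnf4a was (519 CPM against 621). The sgTrp53+MYC tumors, by contrast, had a higher mean of Car3 at lower hepatocyte marker sums, and replicate 5 combined the highest Car3 of all tumors (773 CPM) with the lowest marker sum (2493 CPM) and the lowest Alb (730.0 CPM). In that library, Apoa1 and Serpina1a were also the lowest of all tumors. Hnf4a, Ttr and Tat were not, at 503, 451 and 3.095 CPM. Lower values were 268 CPM of Hnf4a in sgTrp53+MYC replicate 1, 205 CPM of Ttr in sgTrp53+MYC replicate 2 and 2.204 CPM of Tat in Aldafermin+MYC replicate 2.
Without Aldafermin+MYC replicate 4 and FGF19+MYC replicate 5, Car3 in the remaining Aldafermin+MYC and FGF19+MYC tumors differed from sgTrp53+MYC by -3.68 ± 0.59 on the log2 scale. Adipocytes and skeletal muscle also express Car3. The 5 adipocyte markers summed to at most 0.341 CPM in any library. Of the 8 skeletal muscle markers, Myh4 was at 0 in all tumors and Mb at 0 in sgTrp53+MYC tumors, but Ckm, the muscle creatine kinase, was at 16.6 to 548 CPM in sgTrp53+MYC tumors and at no more than 0.461 CPM in any other library. The muscle sum was 18.5 to 552 CPM in sgTrp53+MYC tumors, nearly all of it Ckm, and 1.02 to 4.12 CPM elsewhere, and its part in the Car3 values was not tested.

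**Figure D2:**
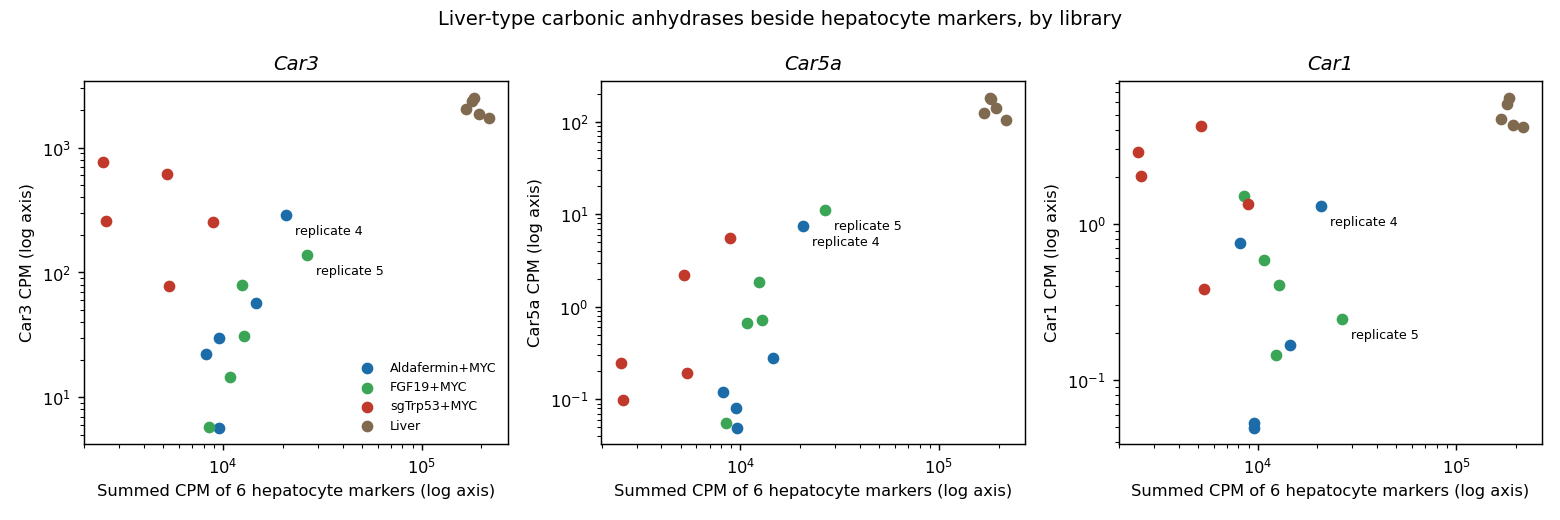
CPM of Car3, Car5a and Car1 (log axis) against the summed CPM of 6 hepatocyte markers (log axis), 1 point per library, coloured by group, with Aldafermin+MYC replicate 4 and FGF19+MYC replicate 5 named. The 5 livers sit together at 167800 to 217600 CPM of markers, and the sgTrp53+MYC tumors hold 78.1 to 773 CPM of Car3 at marker sums of at most 8903 CPM.

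Car5a, the mitochondrial enzyme, had the most negative log2 differences from liver of the fitted members. Liver libraries held 142, 182, 125, 105 and 177 CPM. Aldafermin+MYC tumors held 0.121, 0.0495, 0.0799, 7.45 and 0.28 CPM. FGF19+MYC tumors held 0.0557, 1.85, 0.717, 0.674 and 11.1 CPM. Among sgTrp53+MYC tumors the values were 5.53, 0.0978, 2.22, 0.19 and 0.245 CPM. The highest tumor was thus below the lowest liver (105 CPM), and in each tumor group 1 library carried most of the signal. The log2 difference from liver was -6.12 ± 1.05 (SE) for the mean of Aldafermin+MYC and FGF19+MYC tumors and -6.47 ± 1.43 for sgTrp53+MYC tumors. The 2 highest tumors were again Aldafermin+MYC replicate 4 and FGF19+MYC replicate 5, and their Car3, Alb and Tat were high as well. Leaving both out turned the difference between these tumors and sgTrp53+MYC from 0.35 ± 1.04 to -2.28 ± 0.80 on the log2 scale. Both were picked as the highest of 1 side, so a lower value was fixed in advance. With single libraries of either side left out, the difference ran from -1.40 to 1.56. The order of the tumor groups thus depended on single libraries of both sides. The 95% interval between Aldafermin+MYC and FGF19+MYC, -3.58 to 1.66, was the widest of the family.

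Car8, the relative without catalytic activity that binds the inositol trisphosphate receptor, was lower in every tumor than in liver. Liver libraries held 124, 152, 123, 138 and 173 CPM. Levels in Aldafermin+MYC tumors were 36.6, 40.6, 20.99, 33.7 and 57.6 CPM and those in FGF19+MYC tumors 72.1, 28.9, 49.1, 40.5 and 37.4 CPM. In sgTrp53+MYC tumors the levels were 59.3, 27.6, 21.7, 33.5 and 30.1 CPM. The 3 tumor groups overlapped. The log2 difference from liver was -1.77 ± 0.23 (SE) for the mean of Aldafermin+MYC and FGF19+MYC tumors and -2.04 ± 0.29 for sgTrp53+MYC tumors.

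Car2, the fast and widely expressed cytosolic enzyme, was also lower in all tumors. Liver libraries held 20.8, 16.7, 17.6, 15.95 and 19.9 CPM. Aldafermin+MYC tumors held 6.23, 4.71, 2.66, 7.37 and 8.965 CPM and FGF19+MYC tumors 7.58, 6.798, 7.17, 3.84 and 8.49 CPM. The sgTrp53+MYC tumors held 7.25, 5.56, 10.03, 3.56 and 10.7 CPM. The log2 difference from liver was -1.52 ± 0.26 (SE) for the mean of Aldafermin+MYC and FGF19+MYC tumors and -1.29 ± 0.31 for sgTrp53+MYC tumors. Between the former and the latter it was -0.22 ± 0.26.

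Car1, the cytosolic enzyme best known from red blood cells, was low everywhere. Liver libraries held 4.297, 5.89, 4.72, 4.16 and 6.445 CPM. Levels in Aldafermin+MYC tumors were 0.752, 0.0495, 0.0533, 1.305 and 0.168 CPM and those in FGF19+MYC tumors 1.505, 0.145, 0.403, 0.586 and 0.246 CPM. Among sgTrp53+MYC tumors the values were 1.33, 2.04, 4.24, 0.381 and 2.896 CPM, and replicate 3 reached the liver range. The log2 difference was -3.33 ± 0.62 (SE) between the mean of Aldafermin+MYC and FGF19+MYC tumors and liver, -1.23 ± 0.72 between sgTrp53+MYC tumors and liver, and -2.10 ± 0.61 between the tumors. Without sgTrp53+MYC replicate 3 the last of these was -1.72. The sum of 9 red blood cell markers was 163 to 358 CPM in liver, 37.8 to 657 in Aldafermin+MYC, 37.1 to 128 in FGF19+MYC and 18.8 to 99.7 in sgTrp53+MYC tumors. The library with the highest sum, Aldafermin+MYC replicate 5, had 0.168 CPM of Car1, and the part of red blood cells in the Car1 values was not tested.

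Car13, a cytosolic enzyme, was the only fitted member besides Car12 with higher means in all 3 tumor groups and a log2 difference from liver above 1. Liver libraries held 0.716, 0.293, 0.838, 0.5455 and 0.915 CPM. Aldafermin+MYC tumors held 0.752, 1.36, 3.01, 2.035 and 2.045 CPM and FGF19+MYC tumors 0.78, 2.22, 1.39, 1.38 and 1.16 CPM. In sgTrp53+MYC tumors the levels were 1.97, 1.01, 2.15, 0.911 and 1.62 CPM. In each tumor group, 4 of 5 libraries were above all livers. The log2 difference from liver was 1.27 ± 0.37 (SE) for the mean of Aldafermin+MYC and FGF19+MYC tumors and 1.21 ± 0.40 for sgTrp53+MYC tumors. Car9, which was not fitted, also had higher means than in liver (0.20 CPM). They were 0.41 CPM in Aldafermin+MYC, 0.28 in FGF19+MYC and 0.82 in sgTrp53+MYC tumors, the last at 0.198 without replicate 2. Within the cluster on chromosome 3, Car13 thus had higher means in all tumor groups than in liver, and its 3 neighbours Car1, Car3 and Car2 had lower ones.

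The counts of members past the threshold (adjusted p under 0.05, edgeR quasi-likelihood test) are given beside the share of all 14333 genes, and nothing is read from them. For the mean of Aldafermin+MYC and FGF19+MYC against liver, 7 of 8 fitted members were called, 2 higher and 5 lower, against 73.7% of all genes (39.2% higher and 34.5% lower). For sgTrp53+MYC tumors against liver the count was 6 of 8, 2 higher and 4 lower, against 69.9% (36.9% higher and 33.0% lower). Between the mean of Aldafermin+MYC and FGF19+MYC and sgTrp53+MYC tumors it was 2 of 8, Car1 and Car3, both lower in the former, against 23.7% (11.6% higher and 12.1% lower, or 1663 and 1736 genes, and 1260 and 2546 of the larger set of genes tested without a filter on low counts). Car1 was no longer called without sgTrp53+MYC replicate 3. Between Aldafermin+MYC and FGF19+MYC tumors it was 0 of 8, against 0.0% of all genes, with 7.31% of all genes (1048) at an unadjusted p under 0.05. The median log2 difference of the 8 members was -1.64 and -1.26 against liver, where all genes had medians of 0.10 and 0.07.

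**Figure D3:**
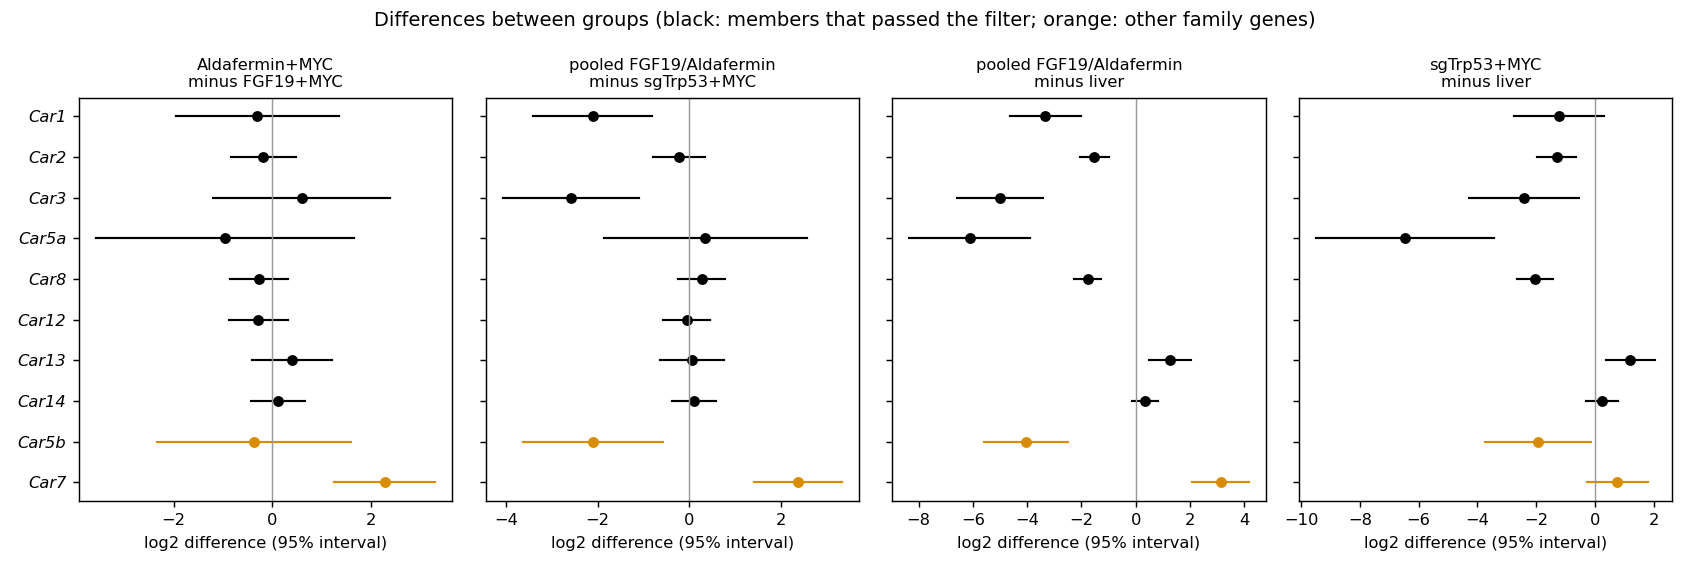
Log2 differences with 95% intervals from the edgeR fit in the 4 comparisons, for the 8 members that passed the filter (black) and for Car5b and Car7 (orange). Car12 is not drawn against liver, where its fitted value depends on the added prior count. Car3 and Car1 lie at -2.58 and -2.10 in the comparison of the tumors, and Car7 at 2.28 between Aldafermin+MYC and FGF19+MYC.

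FGF19 and its analog Aldafermin were compared with the same partner gene and the same delivery, though the expressed dose of either protein was not measured in these libraries. For the 8 fitted members, the log2 difference ran from -0.96 (Car5a) to 0.60 (Car3). The 95% intervals were -0.83 to 0.48 for Car2, -0.86 to 0.32 for Car8, -0.43 to 0.68 for Car14 and -0.41 to 1.22 for Car13, so the bound farthest from 0 among these 4 was 1.22. For Car1 (-1.96 to 1.36) and Car3 (-1.20 to 2.39) the intervals were wide, and differences of several fold in either direction were within them.

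The make-up of the enzyme pool was compared per length, as CPM per kilobase of exon, since longer transcripts give more reads. The summed level of the 10 members was 788 ± 127 CPM per kilobase in liver, 171 ± 93.4 in sgTrp53+MYC, 69.5 ± 36.8 in Aldafermin+MYC and 62.0 ± 17.7 in FGF19+MYC tumors (SD, n = 5). In liver, Car3 made up 86.4 ± 0.80% of this sum, Car5a 8.92 ± 0.92%, Car14 2.51 ± 0.41% and Car8 1.22 ± 0.13%. In Aldafermin+MYC tumors, Car14 held 44.5 ± 18.8%, Car3 26.8 ± 26.3% and Car12 19.8 ± 9.67%. In FGF19+MYC tumors, Car14 held 40.9 ± 11.4%, Car3 23.8 ± 19.5% and Car12 23.7 ± 7.06%. In sgTrp53+MYC tumors Car3 remained first with 67.2 ± 20.1%, followed by Car14 with 17.9 ± 12.3% and Car12 with 10.2 ± 7.20%. Per kilobase of exon, Car14 was above Car12 in all 20 libraries, though with no division by length Car12 had the larger mean share in every tumor group (34.1%, 38.8% and 21.0%, against 30.01%, 25.8% and 14.25% for Car14). Car3 alone ranged from 4.39 to 71.8% among the 10 Aldafermin+MYC and FGF19+MYC tumors. These values depend on the length used. With the length of the canonical transcript, which for Car8 is 3900 bases in place of 14907, the liver sum was 1321 CPM per kilobase, Car8 (2.77%) came before Car14 (2.04%) in liver, Car5a held 5.56%, and Car14 was above Car12 in 11 of the 15 tumors. Because the shares sum to 1 whole, a high Car3 lowers all others.

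**Figure D4:**
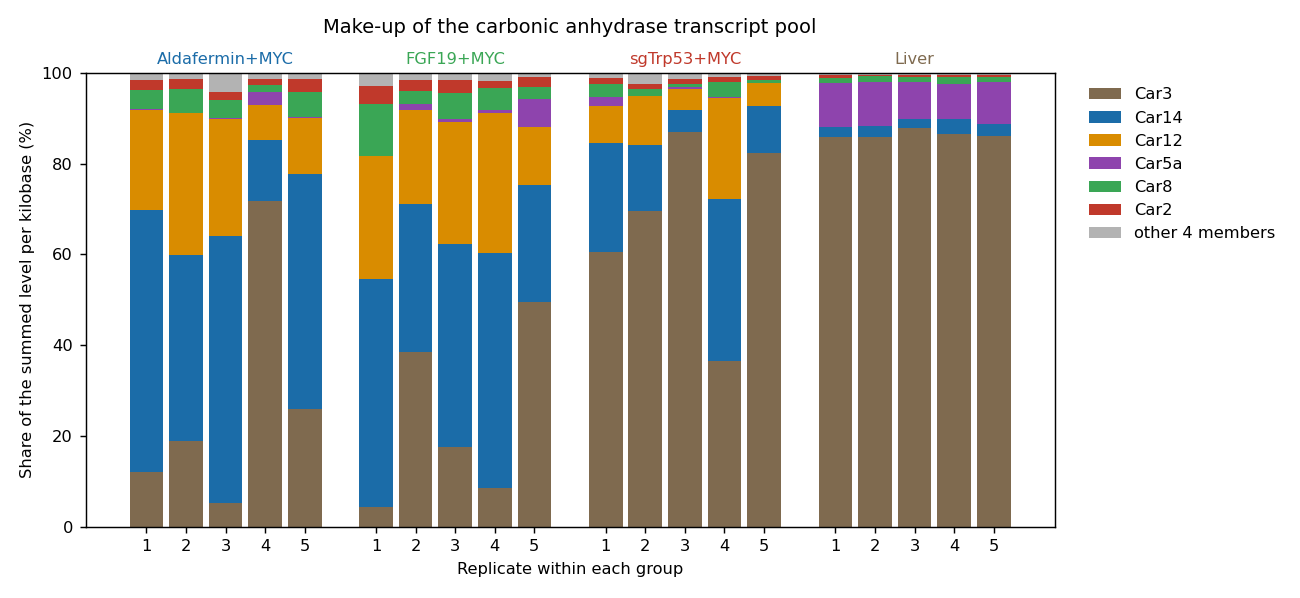
Stacked bars of the share (%) of each member in the summed level per kilobase of exon, 1 bar per library in the 4 groups. Car3 fills 85.8 to 87.8% of every liver bar, while Car14 and Car12 fill most of the bars of 8 of the 10 Aldafermin+MYC and FGF19+MYC tumors.

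Of the 6 family genes outside the 10, Car7 and Car5b passed the filter. Car7, a cytosolic enzyme best known from neurons, was at 1.575, 1.903, 1.28, 1.09 and 1.27 CPM in liver. Levels in Aldafermin+MYC tumors were 22.3, 34.6, 39.9, 19.3 and 22.8 CPM and those in FGF19+MYC tumors 2.84, 6.11, 8.47, 5.57 and 5.51 CPM. The sgTrp53+MYC tumors held 0.51, 6.985, 1.32, 1.94 and 1.41 CPM. Every Aldafermin+MYC tumor was above every FGF19+MYC tumor. Their log2 difference was 2.28 ± 0.49 (SE, 95% interval 1.25 to 3.32, unadjusted p = 0.000157), but it did not pass the correction over 14333 genes (adjusted p = 0.127, edgeR quasi-likelihood test). With DESeq2 the adjusted p was 0.000965 and with edgeR's likelihood ratio test 0.00381. Car7 was higher in the mean of both than in liver by 3.14 ± 0.49 (adjusted p = 1.04e-05) and than in sgTrp53+MYC tumors by 2.37 ± 0.46 (adjusted p = 0.00114). Between sgTrp53+MYC tumors and liver its difference was 0.77 ± 0.49 (adjusted p = 0.17). With single libraries left out this ran from -0.14 to 1.03, and 1 of the 10 fits passed the threshold. Without sgTrp53+MYC replicate 2 the mean of Car7 in this group was 1.30 CPM, below the liver mean of 1.42 CPM.

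Car5b, the second mitochondrial enzyme, was at 5.801, 5.38, 6.79, 5.455 and 4.615 CPM in liver. It was at 0.194, 0.248, 0.266, 0.7295 and 0.08405 CPM in Aldafermin+MYC and at 0.111, 0.327, 0.134, 0.615 and 0.667 CPM in FGF19+MYC tumors. The sgTrp53+MYC tumors were at 0.51, 6.203, 0.334, 0.0952 and 0.153 CPM, where replicate 2, the library with bile duct markers, stood alone. Against liver it fell in the mean of Aldafermin+MYC and FGF19+MYC tumors, with a log2 difference of -4.04 ± 0.73 (adjusted p = 5.6e-05). For sgTrp53+MYC tumors the log2 difference was -1.94 ± 0.85 (adjusted p = 0.0483), a call that was lost in 9 of the 10 fits without a single liver or sgTrp53+MYC library, and without replicate 2 it was -4.35 (adjusted p = 6.36e-06). The difference between the mean of Aldafermin+MYC and FGF19+MYC and sgTrp53+MYC tumors, -2.11 (adjusted p = 0.0395), turned to 0.30 (adjusted p = 0.708) without that library. Car6, Car10, Car11 and Car15 did not reach the filter.

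The enzymes that use bicarbonate were mostly lower in tumors. Against liver, 7 of 8 fell and 0 rose in the mean of Aldafermin+MYC and FGF19+MYC tumors, while 6 fell and 1 rose in sgTrp53+MYC tumors. The medians were -1.42 and -0.75 on the log2 scale, beside 0.10 and 0.07 over all genes, of which 39.2% and 36.9% rose and 34.5% and 33.0% fell. Cps1, the carbamoyl phosphate synthetase that opens the urea cycle, fell in both, with log2 differences of -2.95 ± 0.20 (adjusted p = 1.14e-10) and -1.89 ± 0.25 (adjusted p = 1.38e-06). Pcx, pyruvate carboxylase (Pc in current nomenclature), also fell in both, by log2 values of -1.43 ± 0.19 (adjusted p = 1.73e-06) and -0.66 ± 0.23 (adjusted p = 0.0165), the latter at -0.37 (adjusted p = 0.23) without a filter on low counts. The largest fall was that of Acacb, the mitochondrial acetyl-CoA carboxylase, at -5.13 ± 0.51 (adjusted p = 2.4e-08) and -4.27 ± 0.65 (adjusted p = 9.05e-06). Mccc2, a subunit of methylcrotonyl-CoA carboxylase, was the gene that rose in sgTrp53+MYC tumors, by 0.40 ± 0.15 (adjusted p = 0.0204), and it did not pass without liver replicate 3 (0.35, adjusted p = 0.0579) or sgTrp53+MYC replicate 1 (0.30, adjusted p = 0.0673). Between the tumors, where 12.1% of all genes were lower, 4 of the 8 were lower in the mean of Aldafermin+MYC and FGF19+MYC than in sgTrp53+MYC, among them Cps1 at -1.05 ± 0.20 (adjusted p = 0.00106) and Pcx at -0.77 ± 0.20 (adjusted p = 0.00832).

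Of 14 bicarbonate transporters, 6 were fitted. Slc4a4, the sodium bicarbonate cotransporter of hepatocytes, fell against liver, at -2.84 ± 0.22 (adjusted p = 6.19e-10) in the mean of Aldafermin+MYC and FGF19+MYC tumors and -2.10 ± 0.27 (adjusted p = 1.17e-06) in sgTrp53+MYC tumors. Slc4a7, an electroneutral sodium bicarbonate cotransporter, rose by 0.63 ± 0.18 (adjusted p = 0.00366) and 1.10 ± 0.20 (adjusted p = 7.54e-05). In all, 3 rose and 1 fell in the former comparison and 2 rose and 1 fell in the latter, with medians of 1.04 and 0.33, beside 73.7% and 69.9% of all genes called. Between the tumors, where 23.7% of all genes were called, 1 was higher and 2 were lower in the mean of Aldafermin+MYC and FGF19+MYC than in sgTrp53+MYC, and Slc4a4 was among the lower (-0.75 ± 0.22, adjusted p = 0.0197), but not without sgTrp53+MYC replicate 5 (-0.59, adjusted p = 0.0827). Slc4a7 was the other lower gene (-0.47 ± 0.17), and leaving out any one of 10 libraries, or adding the replicate block, ended its call.

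Of 13 proton and lactate transporters, 9 were fitted, and 3 rose and 3 fell against liver in both comparisons, with medians of -0.14 and -0.34. These 6 of 9 stand beside 73.7% and 69.9% of all genes called, and were not above them. The lactate carriers moved in different directions. Slc16a3, the lactate exporter of glycolytic cells, rose by 4.44 ± 1.01 (adjusted p = 0.000565) in the mean of Aldafermin+MYC and FGF19+MYC tumors and by 6.09 ± 1.10 (adjusted p = 6.82e-05) in sgTrp53+MYC tumors. Slc16a1 rose by 1.65 ± 0.17 (adjusted p = 4.67e-08) and 1.26 ± 0.19 (adjusted p = 5.8e-06), while Slc16a7 fell, at -1.87 ± 0.20 (adjusted p = 9.19e-08) and -1.93 ± 0.25 (adjusted p = 1.43e-06). Between the tumors, 0 of the 9 passed the test, where 23.7% of all genes did.

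Of 15 hypoxia-induced genes, 6 rose and 4 fell in the mean of Aldafermin+MYC and FGF19+MYC tumors, and 5 rose and 1 fell in sgTrp53+MYC tumors, each against liver, with medians of -0.14 and 0.32. The 10 and 6 genes called stand beside 73.7% and 69.9% of all genes, so neither share was above that of all genes. Slc2a1, a glucose transporter, rose by 1.33 ± 0.45 (adjusted p = 0.0123) and 1.44 ± 0.50 (adjusted p = 0.0152), the latter at 0.37 (adjusted p = 0.292) without sgTrp53+MYC replicate 2. Ndrg1, a stress-responsive gene, rose by 1.60 ± 0.36 (adjusted p = 0.000475) and 2.38 ± 0.40 (adjusted p = 2.87e-05). Vegfa, the vascular growth factor, fell, at -2.42 ± 0.13 (adjusted p = 3.23e-12) and -2.28 ± 0.16 (adjusted p = 2.37e-10). Between the tumors, 5 of the 15 were called, beside 23.7% of all genes, and 3 to 6 with single libraries left out. In the mean of Aldafermin+MYC and FGF19+MYC, 1 was higher and 4 were lower than in sgTrp53+MYC. Ldha was the higher gene (0.69 ± 0.17), and Kdm3a was among the lower (-0.76 ± 0.14). Car9, itself a known hypoxia target, was at 0.559 CPM or less in every library except sgTrp53+MYC replicate 2.

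**Figure D5:**
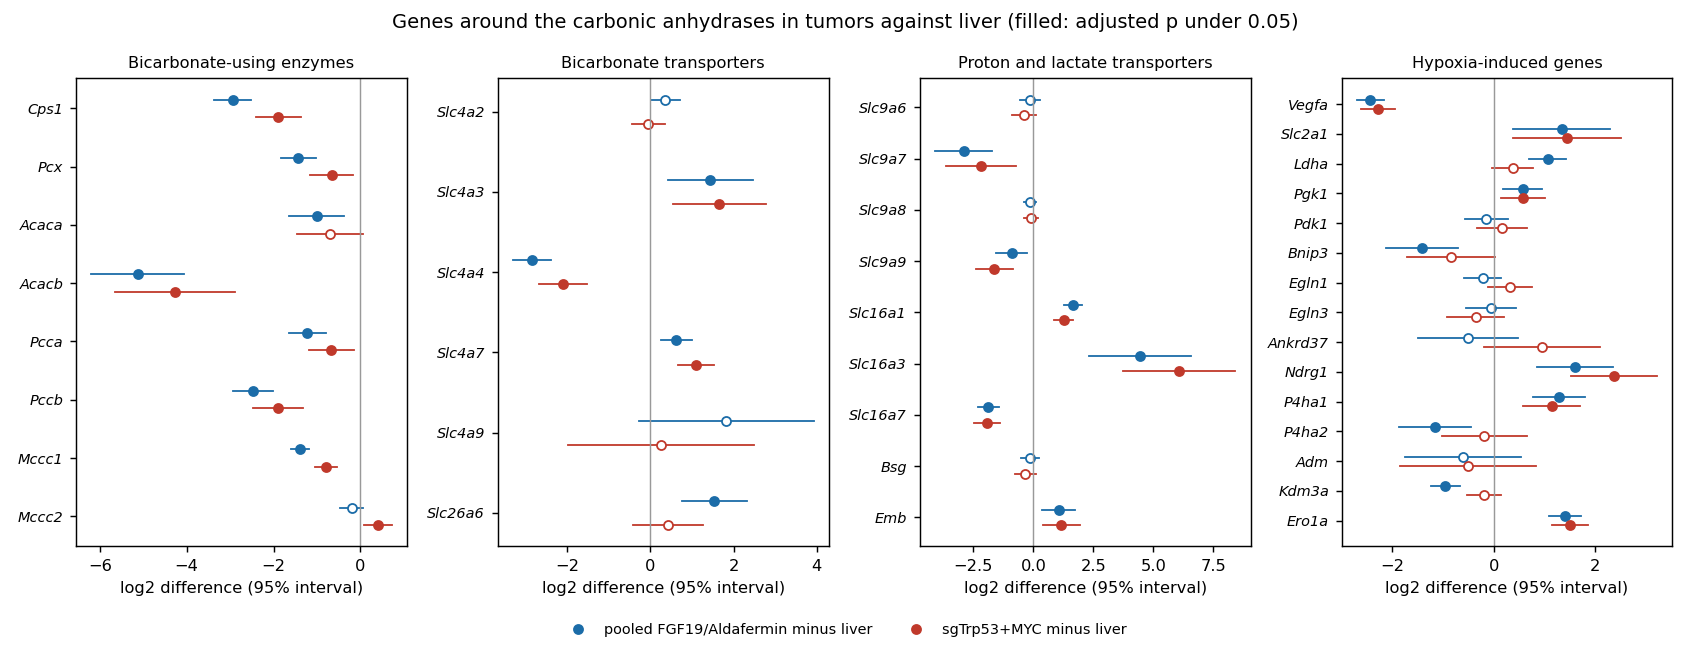
Log2 differences from liver with 95% intervals for the fitted genes of 4 lists, blue for the mean of Aldafermin+MYC and FGF19+MYC tumors and red for sgTrp53+MYC tumors, filled where the adjusted p was under 0.05. Bicarbonate-using enzymes lie mostly left of 0, down to -5.13 for Acacb, while Slc16a3 lies farthest right, at 4.44 and 6.09.

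Car3 is a pericentral gene, so the genes of both liver zones were set beside it. All 8 pericentral genes (Glul, Cyp2e1, Cyp1a2, Oat, Lgr5, Axin2, Rhbg and Slc1a2) and all 7 periportal genes (Ass1, Pck1, Hal, Sds, Gls2, Cyp2f2 and Arg1) fell against liver in both comparisons, where 34.5% and 33.0% of all genes fell. Their medians on the log2 scale were -4.68 and -4.89 for pericentral and -3.03 and -3.13 for periportal genes, in the mean of Aldafermin+MYC and FGF19+MYC tumors and in sgTrp53+MYC tumors. Between the tumors, 0 of 8 pericentral genes passed the test (1 with DESeq2, 2 without Aldafermin+MYC replicate 4, 1 each without FGF19+MYC replicate 1 and sgTrp53+MYC replicate 3, and 3 without Aldafermin+MYC replicate 4 and FGF19+MYC replicate 5 together), and of the periportal genes Sds did, being higher in the mean of Aldafermin+MYC and FGF19+MYC by 1.28 ± 0.40 (adjusted p = 0.0265), though not without sgTrp53+MYC replicate 1, 2 or 3 (1.13 to 1.21, adjusted p = 0.0604 to 0.0644) or with only the compared groups fitted (1.26, adjusted p = 0.0515). Glul, glutamine synthetase, fell against liver, at -2.41 ± 0.26 (adjusted p = 6.63e-08) and -3.10 ± 0.33 (adjusted p = 9.88e-08), and was 0.69 ± 0.27 higher in the mean of Aldafermin+MYC and FGF19+MYC than in sgTrp53+MYC (adjusted p = 0.0732). Of the 8 pericentral genes, 6 lay above 0 and 2 (Oat at -0.53 and Axin2 at -0.37) below 0 in this comparison, where Car3 lay below 0. Over all genes, 23.7% passed the test between these tumors and sgTrp53+MYC. Between Aldafermin+MYC and FGF19+MYC tumors, 0 genes of any of these lists passed the test, as did 0 of all 14333 genes.

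The genes most like each member over the 20 libraries were found by the root mean square difference of log2 CPM, each gene centred on its own mean. For Car12 they were Phgdh (0.59) and Psat1 (0.69), enzymes of serine synthesis, where Car12 itself varied by 4.57 on this scale. Phgdh was at 897 ± 235 CPM in Aldafermin+MYC, 752 ± 134 in FGF19+MYC and 582 ± 95.3 in sgTrp53+MYC tumors and at 0.964 ± 0.806 in liver (SD, n = 5). For Car5a they were Gm4756 (0.63) and Pigr (0.74), for Car3 Gm41999 (0.85) and Upp2 (0.98), and for Car1 Mmd (0.91) and Sytl1 (1.02), with own variations of 3.91, 2.84 and 1.93. For Car8 they were Rnf13 (0.27) and Ebpl (0.28), for Car2 Mmaa (0.37) and Cisd1 (0.39), for Car13 Tlr13 (0.39) and St8sia4 (0.39), and for Car14 Mpzl2 (0.26) and Armt1 (0.27), with own variations of 0.94, 0.81, 0.75 and 0.42. Among the members, the closest pair was Car2 and Car8 (0.59).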

How the data were processed

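Stranded mRNA libraries from 20 mice were sequenced as paired-end reads, converted with bcl2fastq 2.20.0.422 per the labels, aligned by the authors with HISAT2 to the mouse genome (mm39) and counted per gene of NCBI RefSeq with htseq-count. The HISAT2 and htseq-count versions and the strand setting of the counting are not given in the sources used here. The deposited values are raw counts per gene symbol in 2 tables, 1 for the sgTrp53+MYC tumors and 1 for the other groups, mapped to samples by title. The 5 summary rows that name no gene held 33.7 to 56.2% of each library and were removed.

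Counts were scaled by TMM and fitted in R 4.3.3 with edgeR 4.0.16 (limma 3.58.1), keeping the 14333 genes that reached 1 CPM in 5 or more libraries, 1 quasi-likelihood model of 4 groups, and Benjamini-Hochberg adjustment over all genes. The test was also run on counts simulated from its own fitted spread, for the comparison between the tumors. These counts held no outlier libraries and no effect of the separate table, and nothing here rests on them. Lengths are exon bases of GENCODE M39. No 2 libraries of a group were duplicates (chi-square over degrees of freedom at least 15.0).

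The members, gene lists and comparisons were chosen with earlier results of these data known. Named genes were all family genes, 7 genes always given (Cps1, Pcx, Slc4a4, Slc16a1, Slc16a3, Vegfa and Slc2a1), and up to 4 called genes of each list with the largest change at a mean of at least 10 CPM, of which some are printed. Trp53 was added as the target of the guide, and its mRNA level is not a test of whether the gene was inactivated. Some list genes are not reported here and were left out of the counts and sums. Alternatives were DESeq2 1.42.0, the likelihood ratio test, other size factors and filters, only the compared groups, a replicate block, GC and length trends and each library left out.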

Additional observations from a re-analysis of the deposited data

Results flagged for a closer look

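Of 56 sets of 5 libraries (each family gene detected in each group), 12 held a library far from the other 4. A rate of 1 in 20 would give 2.8. Gaps were taken on CPM and not on a log scale, and every flagged library was the highest of its set, so that rate need not hold. The sets share libraries and some rest on a few reads, so no excess is read from this. Aldafermin+MYC replicate 4 was flagged for Car3 (290.3 CPM, next 57.0), Car5a (7.45 CPM, next 0.28), Car5b (0.73 CPM, next 0.266) and Car15 (0.614 CPM, next 0.28). FGF19+MYC replicate 5 was flagged for Car5a (11.1 CPM, next 1.85) and Car11 (0.386 CPM, next 0.0293). These were the 2 tumors with the highest Alb and Tat, and the part of these transcripts in the values was not tested.

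The library sgTrp53+MYC replicate 2 was flagged for Car9 (3.3 CPM, next 0.207), Car5b (6.2 CPM, next 0.51), Car7 (6.99 CPM, next 1.94) and Car4 (0.168 CPM, next 0). It was also the library with the highest bile duct markers, with a summed level of 777.5 CPM, and their part in the values was not tested. The flag on Car10 in sgTrp53+MYC replicate 3 (0.0461 CPM, next 0) and that on Car12 in Liver replicate 4 (0.273 CPM, next 0) rest on a few reads each.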

How the results depend on the processing

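Counts of called members stayed within 1.5 times of 7, 6 and 0 in the comparisons with liver and of Aldafermin+MYC with FGF19+MYC under the alternatives that could be fitted. Between the mean of Aldafermin+MYC and FGF19+MYC and sgTrp53+MYC tumors the count was 2, and it was 1 at a filter of at least 5 CPM, which left 6 members (Car1 and Car13 were not among them), and 1 to 2 with single libraries left out (1 without sgTrp53+MYC replicate 3). Over all genes, Aldafermin+MYC against FGF19+MYC gave 0 calls, but 96 with DESeq2, 59 with the likelihood ratio test, 2 with DESeq2 size factors, 10 without Aldafermin+MYC replicate 4 and FGF19+MYC replicate 5 together, and 0 to 29 with single libraries left out. The cause was not tested. Single libraries left out gave 2497 to 3777 calls between the tumors (3399 with all). Car5b between the tumors was -2.11, -2.41 to 0.30 with single libraries left out, and reversed to 0.30 without sgTrp53+MYC replicate 2, and its fall against liver in sgTrp53+MYC tumors was not past the threshold in 9 of 10 such fits. Without a filter on low counts the median of all genes moved by 0.18 and 0.29 on the log2 scale against liver, for the mean of Aldafermin+MYC and FGF19+MYC and for sgTrp53+MYC tumors, and by -0.11 between them. Of the values fitted for members, 653 kept their side of the threshold (or, for the GC and length trends, a similar size) and 1 did not (Car1). Differences that were not called could change direction. Car5a between Aldafermin+MYC and FGF19+MYC tumors ran from -4.46 to 0.81 with single libraries left out, and Car3 from -0.90 to 1.31.

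The replicate numbers are shared across groups but the mice differ, and same-numbered libraries did not deviate together (30 pairs, correlations -0.33 to 0.33, 6 over 0.1). With the number as a block, calls between the tumors were 3120 in place of 3399, with 2 members as before, and Car5b there was -1.21 (adjusted p = 0.336). The block changed no member's call. At this depth a count of 3 reads is 0.0345 to 0.215 CPM, which limits Car4, Car9 and Car12 in liver. Counting intervals cover counting error only.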
